A study of Homo sapiens with 19 samples.

Results

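The genes described here encode the proteins of the cytosolic ribosome, and the data are lists of histone mark peaks around their transcription start sites (TSS) in MOLM-13, a human acute myeloid leukaemia cell line that carries an MLL fusion. Members were taken by name from the protein-coding autosomal genes of GENCODE release 44 on hg38: every RPL or RPS symbol with a number and at most 1 further letter, plus RPSA, RPLP0, RPLP1, RPLP2 and FAU. This gave 78 of 19111 genes, 46 of the large and 32 of the small subunit, on 20 chromosomes, with 12 on chromosome 19. The name rule took in 4 paralogues with restricted or induced expression (RPL3L, RPL10L, RPL39L and RPS27L). It left out 4 genes on the X chromosome and, by name, RACK1. Cells received Corin, a molecule that combines inhibition of the demethylase LSD1 and of class I histone deacetylases, or DMSO, its solvent, for 24 h. The labels give 0.1 µM for both groups, and what that means for DMSO is unclear. H3K27ac, H3K4me2 and H3K4me3 were each profiled by CUT&RUN, which cuts out the DNA beside an antibody with a tethered nuclease, in 2 libraries per treatment. That makes 12 peak lists. The other 7 of the 19 libraries (ATRA with Corin, LSD1 and IgG) were not analysed here. All groups were the same line, and nothing in the labels says that the 2 libraries of a group came from separate cultures. The p-values therefore measure only the spread between these libraries, which is pooled in part over genes.

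Each ribosome is built from ribosomal RNA and one copy or a few copies of each of these proteins, and the genes are among the most steadily transcribed in growing cells. Many of their messenger RNAs begin with a C followed by a run of pyrimidines, the TOP sequence, through which mTOR signalling controls their translation. H3K4me3 marks the nucleosomes at active start sites, H3K4me2 flanks them and also marks enhancers, and H3K27ac marks active promoters and enhancers. LSD1 removes methyl groups from H3K4me1 and H3K4me2, and deacetylases remove H3K27ac.

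The lists held 34424 and 30029 H3K27ac peaks after Corin against 17599 and 19995 after DMSO, 41152 and 40042 against 30896 and 32299 H3K4me2 peaks, and 11757 and 11883 against 11104 and 11343 H3K4me3 peaks. No read counts are in the lists, which leaves sequencing depth unknown, and coverage below means base pairs (bp) of a window under any deposited peak. All 8 myeloid markers searched had H3K27ac within 2 kb of the TSS in all 4 lists. None of the 10 T cell, B cell, erythroid and liver markers had it in any list. For H3K4me2, PAX5 of B cells and APOA1 of liver had a peak in all 4 lists and KLF1 of erythroid cells in 3, and APOA1 had H3K4me3 in 1. The myeloid gene MPO had no H3K4me3 peak in any list, and the other 7 had it in all 4.

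The start regions of 10 members are shown because the results below turn on these genes. RPS19, RPL7A and RPS16 had the largest H3K27ac differences, RPL37A the largest of H3K4me2 and RPL19 the largest of H3K4me3. RPL41 and RPS27 had no H3K27ac peak within 2 kb in DMSO. RPL24 had no listed peak of any mark near it, RPS27L carried H3K4me2 over its start, and RPL10L is a paralogue of the testis. Each run is 80 bases on the gene's strand, 60 before the start and 20 from it, taken from RefSeq promoters (GRCh38.p14). Capitals mark the pyrimidine run that begins at the first transcribed base, the ETS core CCGGAAG in RPS27L and the TATA box TATAAA in RPL10L. In RPL24 the capitals run on past the 10 pyrimidines into the YY1 letters AAGATGGC, which lie on the other strand.
RPS19 (chr19:41860195-41860274, plus strand): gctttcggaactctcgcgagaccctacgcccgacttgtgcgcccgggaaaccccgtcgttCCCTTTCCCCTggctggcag
RPL7A (chr9:133348158-133348237, plus strand): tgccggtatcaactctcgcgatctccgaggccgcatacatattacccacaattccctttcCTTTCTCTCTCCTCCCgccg
RPS16 (chr19:39435930-39436009, minus strand): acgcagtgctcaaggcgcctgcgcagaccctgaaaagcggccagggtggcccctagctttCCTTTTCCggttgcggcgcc
RPL37A (chr2:216498784-216498863, plus strand): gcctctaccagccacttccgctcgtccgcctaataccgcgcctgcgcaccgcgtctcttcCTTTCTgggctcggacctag
RPL41 (chr12:56116573-56116652, plus strand): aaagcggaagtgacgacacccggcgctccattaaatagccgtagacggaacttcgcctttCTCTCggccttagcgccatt
RPS27 (chr1:153990702-153990781, plus strand): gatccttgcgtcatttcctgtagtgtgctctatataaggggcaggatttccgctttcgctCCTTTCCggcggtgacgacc
RPL24 (chr3:101686699-101686778, minus strand): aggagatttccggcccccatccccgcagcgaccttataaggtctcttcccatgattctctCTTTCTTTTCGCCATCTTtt
RPL19 (chr17:39200223-39200302, plus strand): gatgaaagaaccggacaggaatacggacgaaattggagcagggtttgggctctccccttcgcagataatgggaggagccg
RPS27L (chr15:63157458-63157537, minus strand): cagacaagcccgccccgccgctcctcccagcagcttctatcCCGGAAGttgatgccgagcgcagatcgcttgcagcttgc
RPL10L (chr14:46651762-46651841, minus strand): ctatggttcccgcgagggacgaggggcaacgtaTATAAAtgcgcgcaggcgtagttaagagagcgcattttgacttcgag

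RefSeq promoters of 300 bases (250 before the start, 50 from it) were matched by symbol for 61 members, 59 of them with the same start as the GENCODE canonical transcript used for the windows. A TOP start, a C at the first base followed by 4 C or T on the gene strand, was present in 44 of the 61, 72.1%, against 4.68% of 14616 matched genes. The ETS core CCGGAAG, searched on both strands like the motifs that follow, lay in 20 of the 61 (32.8%, all promoters 14.9%). The YY1 letters AAGATGGC lay in 7 (11.5%, all 4.16%), the GC box GGGCGG in 34 (55.7%, all 62.2%) and TATAAA in 6 (9.84%, all 9.47%). The E-box CACGTG and the NRF1 letters GCATGCGC lay in 3 each (4.92%, all 8.76% and 4.30%). These matches describe the letters in the window and nothing of binding.

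Most members carried all 3 marks within 2 kb of their starts in every library. A peak within 2 kb of the TSS in all 4 lists was present for H3K27ac at 68 of 78 members (all genes 27.8%), for H3K4me2 at 74 (all genes 61.7%) and for H3K4me3 at 73 (all genes 49.7%). All 12 lists had such a peak at 68 members, 87.2%, against 26.9% of all genes. This presence was the constitutive reference for which the genes were proposed, so it is given as a description.

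Of the 10 exceptions, 5 had H3K4me2 and H3K4me3 in all lists but H3K27ac in some only. RPL41, the smallest ribosomal protein, had 2200 and 1023 bp of H3K27ac within 2 kb after Corin against 0 and 0 bp in DMSO. RPS27, a zinc-binding small subunit protein, had 274 and 479 bp against 0 and 0 bp. Both genes had H3K4me3 in every list, RPL41 2940 and 3146 against 3071 and 2731 bp, and RPS27 1410 and 1307 against 1119 and 1141 bp. RPL26 and RPL23A lacked an H3K27ac peak in the first DMSO library and RPL23 in the second, and each of these 3 had one in the other 3 lists.

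Others lacked marks more widely. RPL24 of the large subunit had no listed peak of any mark within 10 kb in the files used here, and the nearest peaks lay 15276 to 37663 bp away. RPL3L, a paralogue of heart and skeletal muscle, had none within 2 kb, and its nearest peaks lay 4302 to 9506 bp away; the start of NDUFB10 is 4849 bp and that of RPS2 10137 bp from it. RPL10L had a single H3K27ac peak, 297 bp within the window, in the first Corin library. RPL39L, also a testis paralogue, had H3K4me2 of 1839 and 1380 bp after Corin against 1425 and 1265 bp in DMSO, with H3K27ac and H3K4me3 in 3 of 4 lists each. RPS27L, a p53-induced paralogue, had all 3 marks in all lists.

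Taken over all members, the marks had a typical order along the gene, from which single members departed. H3K4me2 within 2 kb was larger downstream at 45, 43, 54 and 52 members and larger upstream at 29, 31, 20 and 22 (Corin 1 and 2, DMSO 1 and 2). H3K4me3 lay over the start itself: at the most covered position, 0 to 50 bp from the TSS, 93.6% to 94.9% of members had a peak. H3K27ac was most often present at 100 to 200 bp, in 93.6% and 88.5% of members after Corin and 66.7% and 79.5% after DMSO. H3K4me2 was most often present far downstream, at 1450 to 1750 bp, in 87.2% to 89.7% of members, with a lower maximum upstream of the start. Between them lay a gap: H3K4me2 covered the start in 5.13%, 5.13%, 5.13% and 14.1% of members (Corin 1 and 2, DMSO 1 and 2). Where the start was free, the next H3K4me2 peak began at a median of 846.5, 923, 802.5 and 804 bp downstream, and the nearest upstream peak lay 189.5, 212.5, 196 and 202 bp away. Peaks on both sides of the start were present at 63, 58, 57 and 51 members. The gap sat under H3K4me3, which reached medians of 2104, 1968, 1762 and 1839.5 bp downstream with its widest peak.

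**Figure D1:**
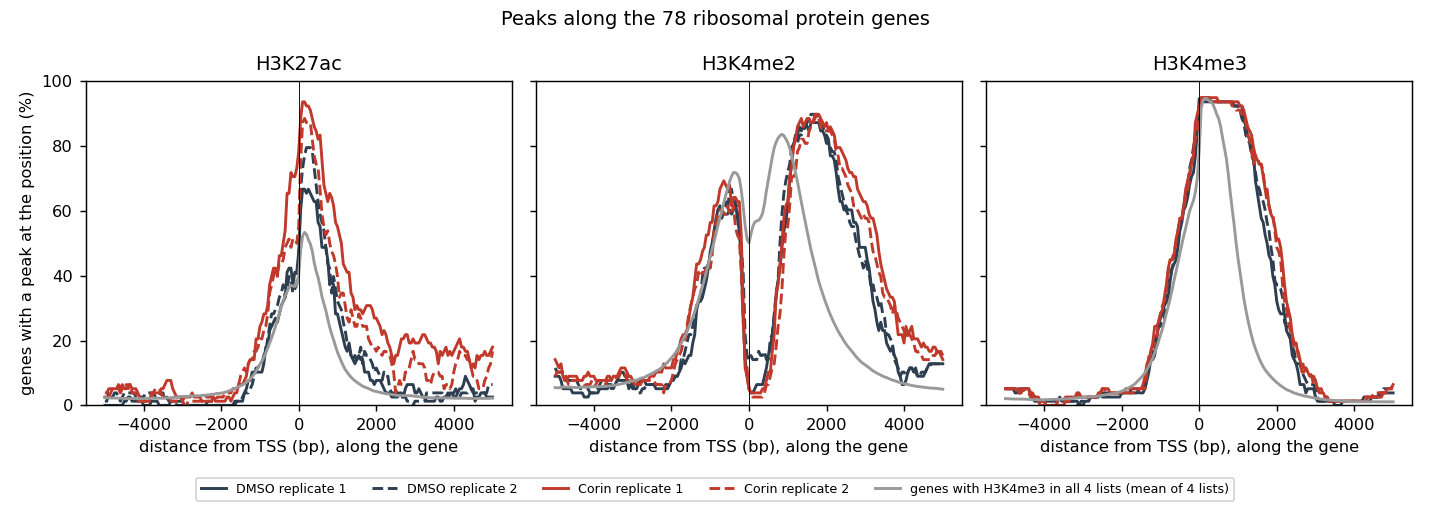
Share of the 78 members with a peak at each position from 5 kb before to 5 kb after the TSS (x, bp along the gene; y, percent of genes), 1 line per library, with genes that have H3K4me3 in all 4 lists as a grey mean of 4 lists. H3K4me2 falls to between 5.13% and 14.1% of members at the start and is highest 1450 to 1750 bp downstream, while H3K4me3 covers the start.

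The widest H3K4me3 peak at a member had a median width of 2739.5 and 2653.5 bp after Corin against 2366 and 2507.5 bp in DMSO. By the deposited score, whose definition is not given in the sources used here, the strongest H3K4me3 peak at a member ranked at a median percentile of 96.2 to 97.2 within its list, and 59 or 60 members were in the top 10%. H3K27ac peaks ranked lower, at medians of 87.2 and 87.1 after Corin and 76.4 and 80.7 after DMSO. H3K4me2 ranked at 74.9 to 78.9. Within 2 kb, 93.8% to 96.7% of H3K27ac bp at members lay inside H3K4me3, and H3K4me2 covered 51.7% to 61.1% of H3K4me3 bp. The share of H3K4me3 bp that also carried H3K27ac was 67.0% and 57.7% after Corin and 42.7% and 46.9% after DMSO, without overlap between the treatments. This share was taken for members only, with no value for other genes. The whole H3K27ac lists also cover more after Corin, 26.1 and 20.1 Mb against 11.1 and 12.6 Mb.

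The absence of H3K4me2 from the start was set beside other gene lists. Of 9501 genes with H3K4me3 in all 4 lists, 48.4% and 46.7% after Corin and 41.8% and 63.7% after DMSO had the TSS base under an H3K4me2 peak. Genes with wide H3K4me3 (at least 2000 bp within 2 kb in all 4 lists, 1883 genes) gave 33.2%, 32.9%, 31.7% and 51.6%, and the 48 members of that kind 2.08%, 2.08%, 4.17% and 10.4%. The 38 translation factor genes were the nearest of the lists, at 13.2%, 10.5%, 5.26% and 15.8%. The 30 ribosome biogenesis genes gave 16.7% in 3 lists and 43.3% in the second DMSO library. Subunits of oxidative phosphorylation gave 31.3%, 28.9%, 31.3% and 49.4%, and mitochondrial ribosomal proteins, 78 genes with the same task in another compartment, 50%, 42.3%, 33.3% and 61.5%. The second DMSO library was the highest of the 4 in each of these lists. No test of the difference between lists was made.

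**Figure D2:**
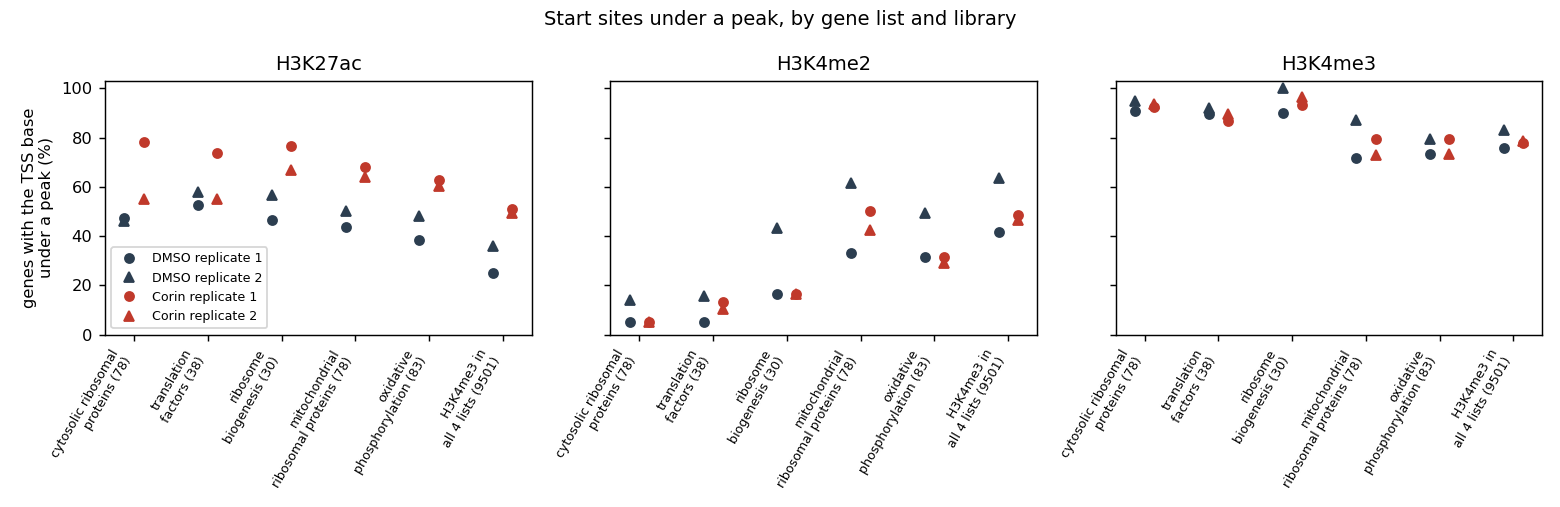
Share of genes whose TSS base lies under a peak (y, percent) for 6 gene lists (x, number of genes in brackets), 1 point per library. The cytosolic ribosomal protein genes have H3K4me2 at the start in 5.13% to 14.1% of members and H3K4me3 in 91.0% to 94.9%.

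Of the 78 members, 65 had no H3K4me2 over the TSS base in any list, 83.3%, against 28.4% of the genes with H3K4me3 in all 4 lists. The starts of RPS27L and RPL39L, both paralogues outside the steadily expressed core, were covered in all 4 lists and that of RPL19 in 3. RPL22 was among those covered in 2 lists, and 8 members were covered in 1 list. None of the 44 members with a TOP start was covered in 3 or 4 lists, and 7 were in at least 1. Of the 17 matched members without one, 3 were covered in at least 1 list and 2, RPS27L and RPL19, in 3 or 4.

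Levels within 2 kb spread widely among members. In DMSO, mean H3K4me3 coverage of the members with a peak ran from 267 bp at RPL39L through a median of 2396.75 bp to 3842.5 bp at RPL7, of a window of 4001 bp. After RPL7 came RPL28, RPL9, RPL4 and RPL23A. H3K4me2 ran from 648.5 bp at RPL13A to 3509 bp at RPL28, followed by RPL19, RPL7, RPL8 and RPL30. H3K27ac ran from 275.5 bp at RPL23A to 2403.5 bp at RPL37, followed by RPL22, RPL27A, RPS27A and RPL8. RPL37, a zinc-binding large subunit protein, had 2905 and 2826 bp after Corin against 2153 and 2654 bp after DMSO. The next in that order, RPL22, had 2713 and 1962 bp in DMSO, a range that overlaps that of RPL37.

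**Figure D3:**
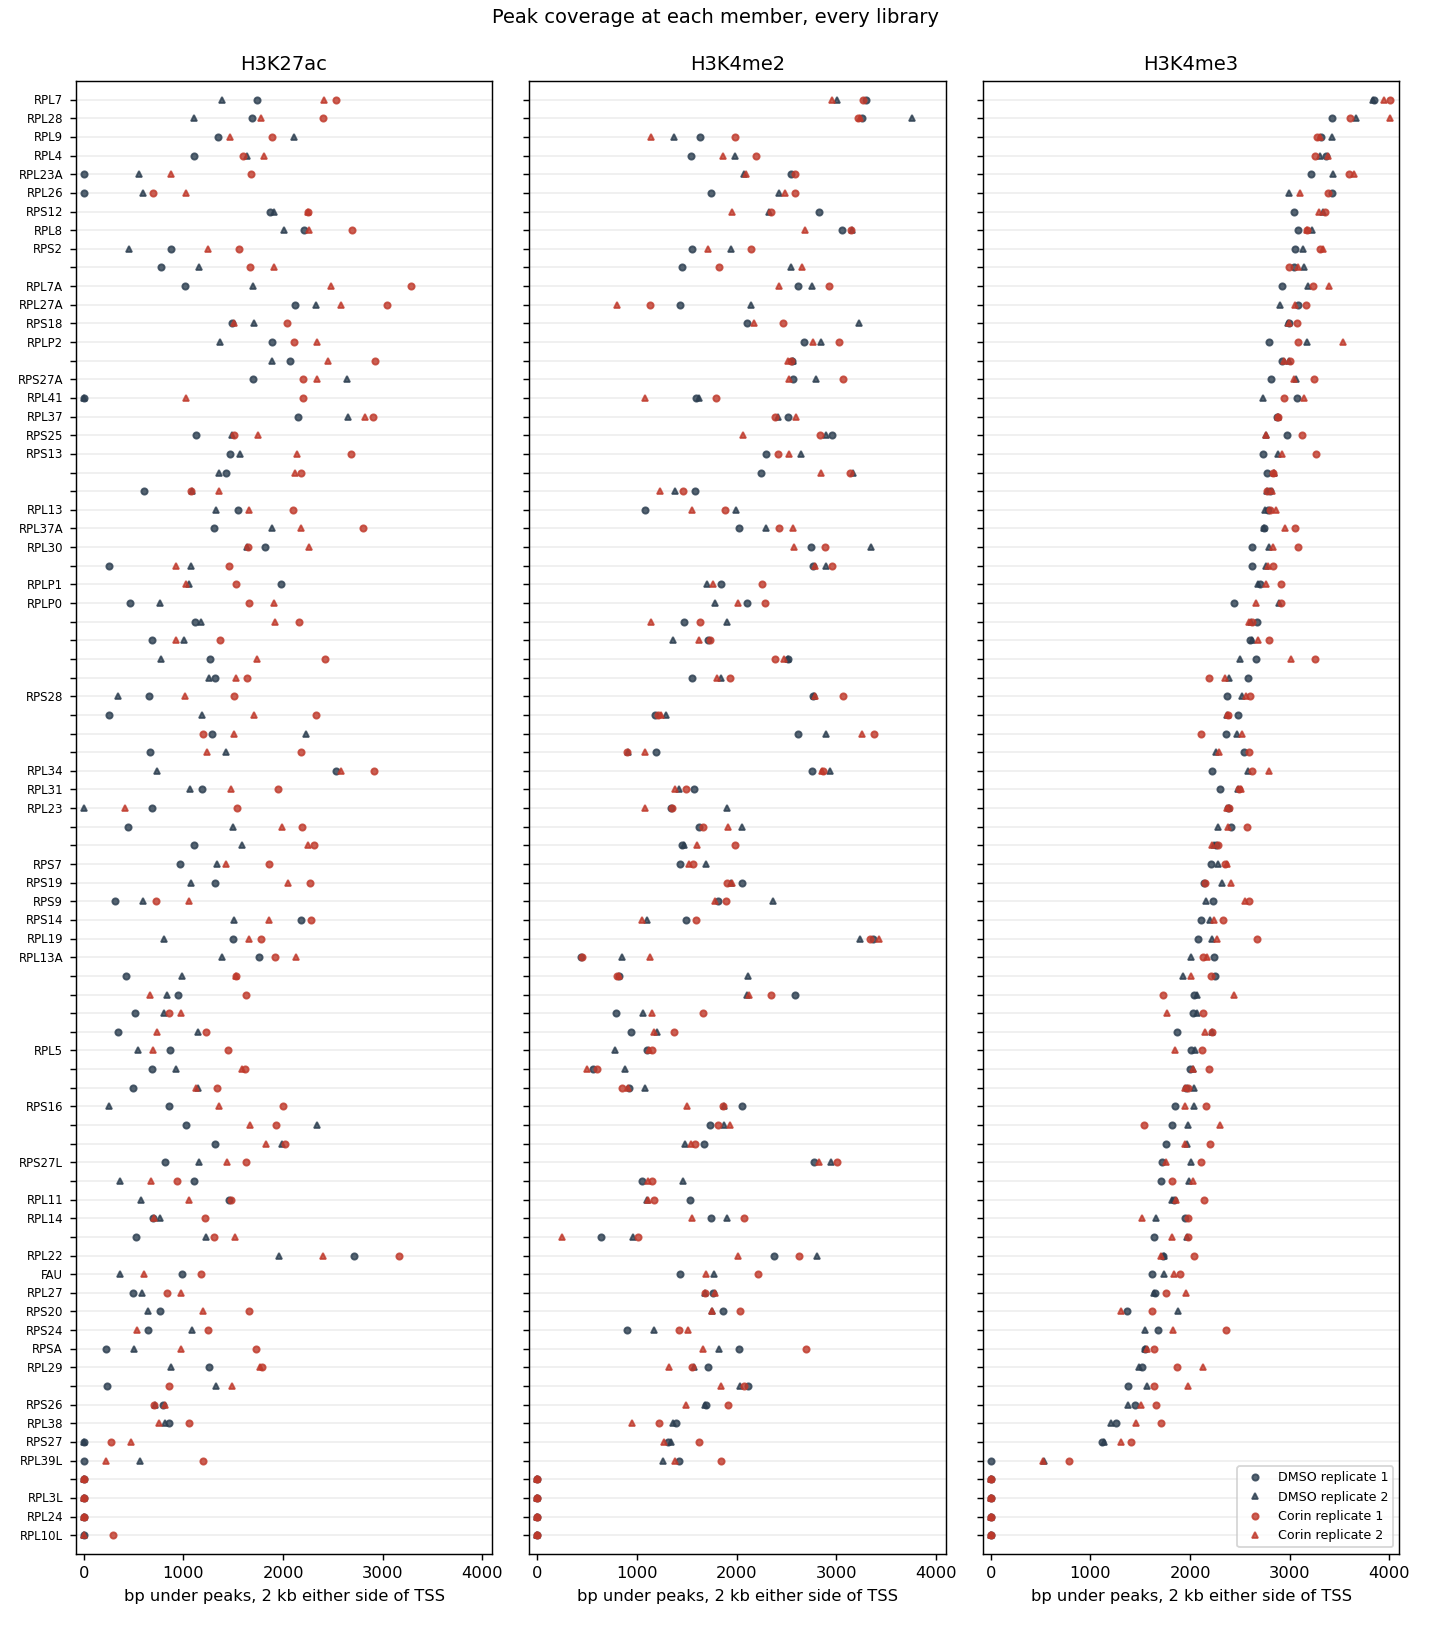
Coverage within 2 kb of the TSS (x, bp) at each of the 78 members (y, ordered by mean H3K4me3 in DMSO, with names for genes described in the text), with every library as a point. H3K4me3 points of a gene lie close together, and H3K27ac points of both Corin libraries lie to the right of both DMSO points at 45 members.

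H3K27ac coverage was higher after Corin at most members. Within 10 kb, both Corin libraries lay above both DMSO libraries at 55 of 76 members with a peak and below at 0, beside 54.8% and 0.589% of 10361 genes. The median difference was 1057 bp over members and 447.5 bp over all genes. Within 2 kb, 45 of 75 members were higher and 0 lower (all genes 47.7% and 0.683%), with medians of 462 and 330.5 bp. In proportion, the median over members was 1.88 times the DMSO median (2317.75 against 1232.25 bp) and over all genes 1.85 times. In limma with Benjamini-Hochberg adjustment over all genes tested, no member and no gene (0.0%) passed an adjusted p of 0.05, and the smallest adjusted p of a member was 0.0528. At an unadjusted p under 0.05, 36 members were higher and 0 lower, beside 24.0% and 0.00965% of all genes. With the replicate number as a block, 21 members passed, all higher, beside 13.9% of all genes (0.0% lower). The block leaves each gene little spread of its own, so these p-values rest mainly on the spread over all genes. For a single member, the exact permutation test of 2 libraries against 2 cannot go below p = 0.33.

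RPS19, a small subunit protein that is mutated in Diamond-Blackfan anaemia, had the largest H3K27ac difference. Its gene (chr19:41860255-41872925) had 6485 and 5886 bp within 10 kb after Corin against 1518 and 1273 bp in DMSO. Both Corin values stand clear of the DMSO values, with a difference of 4790 ± 672 bp (limma SE, n = 2 against 2, adjusted p = 0.0528, and 8.72e-06 with the replicate block). With the block the SE was 851 bp, larger than without it, although the p was smaller. The difference was 2619 bp with matched numbers of peaks and 2721.5 bp at a score of at least 100. The DMSO lists had 2 peaks in that window, 1 that began 149 or 38 bp after the start and a small one near 3 kb. After Corin the first peak began 524 or 387 bp before the start, and further peaks filled the gene out to 9708 and 9791 bp. Within 2 kb the values were 2272 and 2054 against 1313 and 1075 bp.

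RPL7A, of the large subunit, had 7623 and 6411 bp after Corin against 2019 and 4169 bp in DMSO. The DMSO libraries lie far apart, and the difference of 3923 ± 984 bp (limma SE) had an adjusted p of 0.0751 in limma, and of 0.003 with the replicate block. Its 10 kb window holds 3 other protein-coding starts, so the marks in it are not of RPL7A alone. The nearest, 87 bp away on the opposite strand, is that of MED22, a Mediator subunit gene. RPS16 had 5418 and 3776 against 1549 and 1237 bp, and RPL23A 4027 and 3145 against 466 and 961 bp. In both genes the treatments did not overlap. The RPL23A difference of 2872.5 bp was 924 bp with matched numbers of peaks, and that of RPS16 went from 3204 to 2126.5 bp. Over the gene body and 2 kb upstream, the differences were 1800.5 bp for RPL7A, 1708.5 bp for RPS16 and 1406.5 bp for RPL23A. RPLP0, the base of the ribosomal stalk that recruits translation factors, had 4686 and 4104 against 1366 and 2113 bp, and RPSA, also known as the laminin receptor, 3792 and 1161 against 639 and 504 bp. With the replicate block, the limma adjusted p was 6.75e-05 for RPL23A, 0.000564 for RPS16, 0.00124 for RPSA and 0.00629 for RPLP0, and without it none of these 4 passed. The blocked values rest mainly on the spread over all genes, and the Corin values of RPSA lie far apart.

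The members at the other end were lower on average after Corin by less than their spread. RPS26 had 993 and 812 bp after Corin against 1315 and 714 bp in DMSO. RPS24 had 1478 and 727 against 643 and 1765 bp, and RPL9 1887 and 1468 against 1352 and 2113 bp. In these 3 genes the 2 DMSO values enclose both Corin values. At a score of at least 100 their differences turned to 5.5, 27 and 133.5 bp. A mean difference below 0 within 10 kb was found at 4 members.

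**Figure D4:**
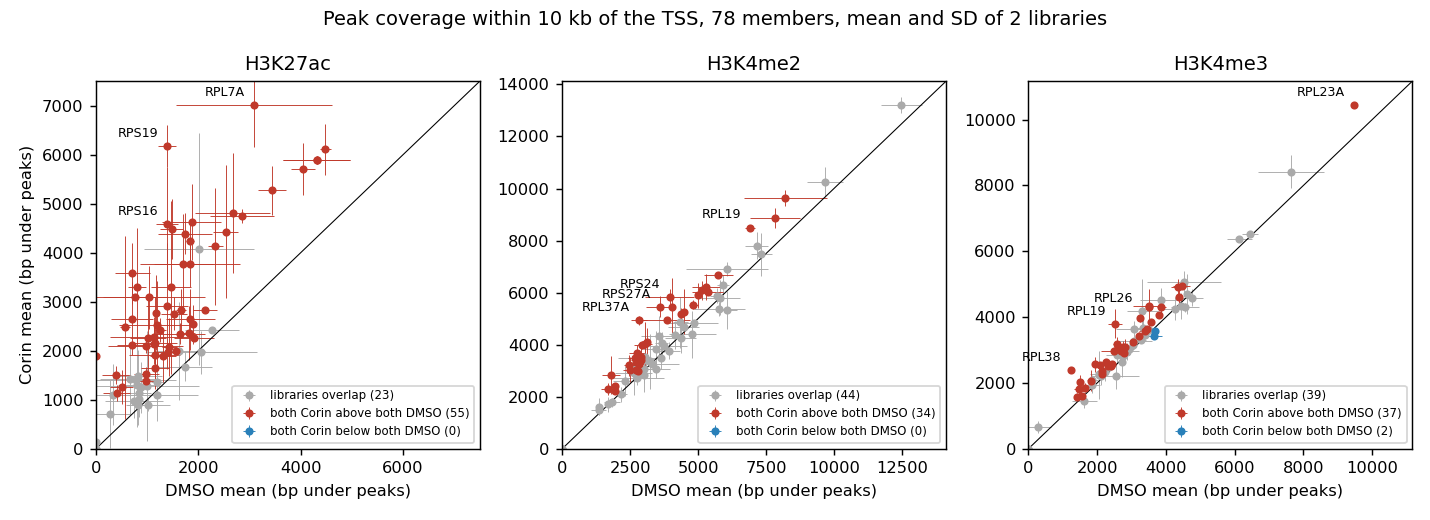
Mean coverage within 10 kb of the TSS after Corin (y, bp) against DMSO (x, bp) for the 78 members and each mark, with SD of 2 libraries as bars and the line of equality. Coloured points above the line, where both Corin libraries exceed both DMSO libraries, are 55 members in the H3K27ac panel, 34 in the H3K4me2 panel and 37 in the H3K4me3 panel, which also has 2 coloured points below the line.

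The Corin lists hold more H3K27ac peaks and more covered bp, 26.1 and 20.1 Mb against 11.1 and 12.6 Mb, so the number of peaks moves with the comparison. With each list cut to its 17599 best-scoring peaks, both Corin libraries were above both DMSO libraries at 38 of 75 members and below at 1, beside 35.4% and 3.44% of all genes. The median difference then was 423.5 bp over members and 268 bp over all genes. Without the first Corin library, which had the most peaks, the median over members was 699.25 bp.

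H3K4me2 differed by place. Within 2 kb, coverage was higher without overlap at 8 of 74 members and lower at 10, beside 28.2% and 7.23% of all genes, and the median difference was 4.5 bp over members and 98 bp over all genes. With matched numbers of peaks 7 members were higher and 15 lower (all genes 24.4% and 10.7%). The 2 kb median over members was then -59.75 bp and over all genes 50 bp. The sign of this median among members was not stable: it was -46.5 bp without the first Corin library, -19.5 bp without the first DMSO library, -36.75 bp within 1 kb, -9.5 bp without members that share a window, -5 bp without the paralogues and -0.5 bp at a score of at least 100. From 2 to 10 kb, by contrast, 42 of 72 members were higher and 0 lower, beside 50.1% and 2.14% of all genes. Over the whole 10 kb, 34 of 75 were higher and 0 lower (all genes 40.0% and 3.84%), with medians of 470 and 232.5 bp. With matched numbers 25 were higher and 1 lower (31.7% and 7.37%), with medians of 252 and 136.5 bp. The median over members was 270.5 bp without the first Corin library and 310 bp over the gene body and 2 kb upstream. In limma no member passed (0.137% of all genes were called higher and 0.0% lower), 10 of 75 were higher and 0 lower at an unadjusted p under 0.05, near the 13.8% and 0.137% of all genes, and with the replicate block 3 passed as higher and 0 as lower, beside 5.48% and 0.00723% of all genes.

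Those 3 were RPL37A, RPS24 and RPS27A, which also had the largest differences. RPL37A, a zinc-binding large subunit protein, had 4803 and 5063 bp of H3K4me2 within 10 kb after Corin against 2618 and 3024 bp in DMSO, a difference of 2112 ± 328 bp (limma SE, adjusted p = 0.103, with the block 0.00495). Its downstream H3K4me2 began 986 and 803 bp after the start in the Corin lists and 962 and 889 bp in the DMSO lists, values that overlap between treatments. It ended at 4414 and 4492 bp after Corin against 2596 and 2727 bp after DMSO. RPS24 had 5634 and 6065 against 3307 and 4595 bp, and RPS27A, made as a fusion with ubiquitin, 5739 and 5192 against 3247 and 3988 bp. RPL19 followed with 8521 and 8482 against 6789 and 7044 bp and RPS9 with 9855 and 9415 against 7139 and 9291 bp. All 5 were without overlap, RPS9 by a small margin over its second DMSO library. The RPS24 difference of 1898.5 bp was 775 bp with matched numbers of peaks and 1254.5 bp without the first DMSO library, and that of RPS9 went from 1420 to 344 bp without that library and to 2496 bp without the second. Over the gene body and 2 kb upstream the difference was 478 bp for RPL19, 654.5 bp for RPS27A and 2572.5 bp for RPS9.

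On the lower side none of the 5 named by rank was free of overlap within 10 kb. RPL27A had 5841 and 4824 bp after Corin against 5824 and 6335 bp in DMSO, and RPS18, RPL22, RPS12 and RPS25 had mean differences from -409.5 to -188.5 bp. Within 2 kb, RPL28 had 3219 and 3234 against 3263 and 3755 bp, 1 of the 10 that were lower there.

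H3K4me3 differences were small beside its levels. Within 10 kb, 37 of 75 members were higher without overlap and 2 lower, beside 26.0% and 8.35% of all genes, with median differences of 207 and 64.5 bp. The median over members was 1.08 times that of DMSO. Within 2 kb, 29 of 74 were higher and 2 lower (all genes 23.9% and 9.15%), with medians of 114 and 51 bp. On the downstream side the median member had 1988.5 and 1955.5 bp after Corin against 1724.5 and 1827 bp in DMSO. That side spans 2 kb, so coverage there could rise little further. Upstream the medians were 608 and 601 against 539.5 and 585.5 bp. No member and no gene (0.0%) passed in limma, with or without the block, and at an unadjusted p under 0.05 there were 12 members higher and 0 lower, beside 5.84% and 1.04% of all genes. H3K4me3 peak numbers differed little between treatments, and with matched numbers 35 of 75 members were higher and 2 lower, beside 24.8% and 9.23% of all genes.

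RPL38, a large subunit protein needed in mice for the translation of Hox messenger RNAs, had the smallest adjusted p of any member for this mark. It had 2382 and 2424 bp of H3K4me3 within 10 kb after Corin against 1254 and 1205 bp in DMSO, a difference of 1173.5 ± 113 bp (limma SE, adjusted p = 0.184). Within each group the libraries were nearly equal. The DMSO peak ran from 19 or 37 bp before the start to 1234 or 1167 bp after it. After Corin it reached 1656 and 1393 bp, and further peaks lay 8299 to 10579 bp downstream, beside the start of TTYH2, 9893 bp away. RPL19 had the largest difference, 4119 and 3483 against 2385 and 2656 bp. RPL23A had 10505 and 10381 against 9506 and 9455 bp in a window that holds 4 other starts, and RPL27A 3937 and 4709 against 3446 and 3560 bp, all without overlap. RPL26 overlapped. The RPL27A difference of 820 bp was 434 bp without the second Corin library and 420.5 bp at a score of at least 100. Over the gene body and 2 kb upstream the differences were 356.5 bp for RPL38, 472 bp for RPL19 and 303 bp for RPL23A.

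The 2 members that were lower in both libraries within 10 kb were RPL13, with 3427 and 3457 bp after Corin against 3485 and 3820 bp in DMSO, and RPL9, with 3649 and 3485 against 3664 and 3685 bp. The RPL13 difference of -210.5 bp was -43 bp without the second DMSO library and -378 bp without the first. RPL14, RPL4, RPS20 and RPLP0, which also had negative mean differences, overlapped between treatments, as RPL4 did with 4208 and 4396 against 4856 and 4275 bp.

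Summed in bp, much of the difference for all 3 marks lay from 2 to 10 kb, which is the wider zone. The mean difference per member was 518 bp inside 2 kb and 682 bp outside for H3K27ac. It was -4.4 and 485 bp for H3K4me2, and 117 and 148 bp for H3K4me3. Per bp of zone, the H3K27ac and H3K4me3 differences were larger inside 2 kb, and that of H3K4me2 was larger outside. Mean H3K27ac per member was 1705 and 1438 bp inside 2 kb after Corin against 1005 and 1103 bp, and 1255 and 879 bp from 2 to 10 kb against 337 and 433 bp. H3K4me2 inside 2 kb was 1934 and 1731 against 1768 and 1906 bp, which overlaps, and 2567 and 2378 against 1903 and 2071 bp outside. H3K4me3 was 2386 and 2341 against 2218 and 2275 bp inside and 884 and 898 against 700 and 786 bp outside. In the genes with H3K4me3 in all 4 lists, both Corin values also lay above both DMSO values outside for each mark. The mean difference in these genes was 349 bp inside and 263 bp outside for H3K27ac. It was 84.9 and 263 bp for H3K4me2, and 57.6 and 30.7 bp for H3K4me3. Outside these genes had 567 and 439 against 225 and 257 bp of H3K27ac and 1215 and 1069 against 864 and 895 bp of H3K4me2. For H3K4me3 these genes had 323 and 309 against 279 and 292 bp outside, and their H3K4me2 overlapped inside. From 2 to 10 kb, H3K27ac was higher without overlap at 40 of 67 members and lower at 0 (all genes 49.4% and 0.586%), and H3K4me3 at 26 of 61 and 2 (27.6% and 6.09%). In this outer zone the mean difference was larger downstream than upstream for each mark, 509 against 172 bp for H3K27ac, 370 against 115 bp for H3K4me2 and 110 against 38.7 bp for H3K4me3. In the genes with H3K4me3 in all 4 lists it was 142 against 121 bp, 154 against 109 bp and 15.4 against 15.3 bp. Members are short, with a median length of 5439 bp against 27877 bp over all genes, so the downstream side of the window passes the end of most of them.

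**Figure D5:**
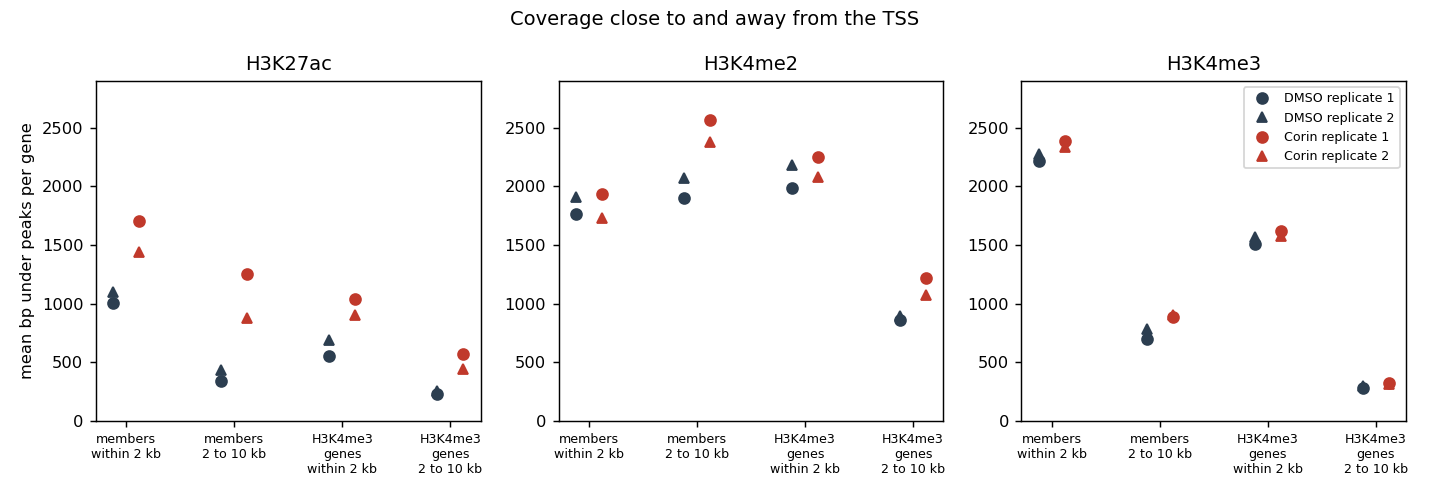
Mean coverage per gene (y, bp) inside 2 kb of the TSS and from 2 to 10 kb, for the members and for genes with H3K4me3 in all 4 lists, 1 point per library. Between 2 and 10 kb both Corin points lie above both DMSO points for all 3 marks at the members, and inside 2 kb the H3K4me2 points of the treatments overlap. The genes with H3K4me3 in all 4 lists show the same.

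Coverage within 10 kb was higher without overlap in all 3 marks at 15 members, 19.2%, against 8.95% of 9664 genes tested in all marks, in 2 marks at 27 (34.6%, genes 27.4%), in 1 at 27 (34.6%, genes 40.3%) and in none at 9 (11.5%, genes 23.3%). The members' shares are of all 78, with or without a peak. Among the 15 were RPL11, RPL19, RPL27, RPL29, RPL31, RPL34, RPL37, RPL37A, RPS7, RPS9, RPS13, RPS14, RPS27 and RPS28. RPL11, which with RPL5 binds the p53 regulator MDM2 when ribosome assembly fails, had 2826 and 1491 bp of H3K27ac after Corin against 1456 and 865 bp, a margin of 35 bp between the nearest libraries. RPL5 had 1888 and 698 against 1072 and 546 bp, which overlap. The 9 with none included RPL24 and the paralogues RPL3L, RPL10L and RPL39L.

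Large subunit members, without the paralogues, had a median H3K27ac difference within 10 kb of 1471 bp, with 34 of 42 higher without overlap. Small subunit members had 729.25 bp, with 20 of 30, beside 54.8% of all genes. For H3K4me2 the medians were 577.75 and 379.75 bp, and for H3K4me3 228.5 and 179.75 bp. The difference between the subunits was not tested.

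Neighbours share these windows. Another protein-coding start lay within 10 kb of 41 members, 52.6% against 29.2% of all genes, and 14 members had a divergent start within 1 kb. Among the members without another start within 10 kb, 24 of 36 were higher for H3K27ac, with a median difference of 777.75 bp, 16 of 35 for H3K4me2 (375.5 bp) and 19 of 35 for H3K4me3 (192.5 bp). Over all genes tested, with or without a neighbour, the shares were 54.8%, 40.0% and 26.0%, and the H3K4me2 count lies near its share.

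Other gene lists gave these values for H3K27ac within 10 kb, where 54.8% of all genes were higher without overlap. Translation factor genes were higher without overlap at 23 of 36 with a median difference of 661.75 bp, and subunits of oxidative phosphorylation at 44 of 76 with 468.75 bp. Mitochondrial ribosomal proteins were higher at 39 of 74 with 449.5 bp and ribosome biogenesis genes at 10 of 30 with 335 bp. RACK1, a small subunit protein in the translation factor list, had no listed peak within 10 kb in the files used here.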

How the data were processed

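Per the labels, CUT&RUN libraries of MOLM-13 cells were sequenced as paired reads. Per the submitters' processing notes, Trim Galore, Bowtie2, Picard and MACS2 were used with hg38 (GRCh38). Versions, thresholds and controls are not given in the sources used here. The deposited files are 1 peak list per library with a whole-number score of at least 50 per peak, as deposited by the authors; the score served to order peaks and to set a minimum, each time inside its own list. All 25 chromosome names are in hg38 and no peak passes a chromosome end.

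The members and all lists were chosen with earlier results of these data known. Overlapping peaks were merged, and bp under peaks were summed within 2 kb and 10 kb either side of the TSS of the Ensembl canonical transcript for 19111 genes (python 3.11.15, pandas 2.3.3, numpy 2.4.6). Libraries were grouped by title. Corin was compared with DMSO within each mark by limma 3.58.1 in R 4.3.3 (trend and robust, two-sided, Benjamini-Hochberg over all genes with a peak in at least 1 of 4 lists), tested first on simulated data. Where coverage does not overlap between groups, this is a description without a test. Same-numbered libraries deviated together from their group means (correlation over genes 0.295 for H3K27ac, 0.315 for H3K4me2 and 0.231 for H3K4me3), but with 2 pairs per mark and no label that says what a number shares, the replicate block is an alternative. With the block, limma took the spread of a gene mainly from all genes, so its p-values say little of each gene's own libraries. Alternatives were matched peak numbers, a score of at least 100, other start sites and windows, leaving out each library or some members, log2(bp + 100), no filter and centring. Genes named are, per mark, the 5 largest differences each way within 10 kb, the 5 highest and lowest in DMSO within 2 kb, members without peaks, and paralogues, of which some are not reported here; RPLP0 and RPSA for H3K27ac, RPL5, RPL11, RACK1 and those listed for a count were named after their values were seen. Lists of peaks limit precision, since a peak is either present or absent.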

Additional observations from a re-analysis of the deposited data

How the results depend on the processing

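Of the members called by limma within 10 kb, where the reported count was 0 for each mark, the replicate block gave 21 for H3K27ac, 3 for H3K4me2 and 0 for H3K4me3. No filter on genes gave 14, 1 and 2, centring each library gave 8 for H3K27ac and 1 for H3K4me2 (RPL37A), and the 5 prime end of the gene record gave 1 for H3K27ac (RPS19). Leaving out 1 library gave 0 to 2 for H3K27ac, and the 1 without the second Corin library was RPL10L, which has a peak in 1 list only. No member was called lower under any of these alternatives. Members with H3K27ac lower without overlap were 0 as reported, 1 with matched peak numbers and 0 to 4 without a library (3 without Corin 1, 4 without DMSO 1 and 1 without DMSO 2). For H3K4me2 they were 0, 1 with matched numbers, 1 over the gene body and 2 kb upstream, 2 by same-numbered pairs (the replicate block without a model), and 0 to 13 without a library (12 without Corin 1, 13 without DMSO 1 and 2 without DMSO 2). For H3K4me3 they were 2, and 4 to 8 without a library (6 without Corin 1 or DMSO 1, 8 without Corin 2 and 4 without DMSO 2). Without a library, members higher for H3K4me2 numbered 40 to 55 (54 without Corin 2, 55 without DMSO 2) and for H3K4me3 43 to 57 (57 without DMSO 2), since fewer libraries overlap less often. The H3K27ac median within 10 kb was 423.5 bp with matched numbers and 699.25 (without Corin 1) to 1227 bp without a library, and within 2 kb 438 to 641 bp. The H3K4me3 median was 4 bp within 1 kb of the start, and the cause was not tested. Members with a peak in all 4 lists were, for H3K27ac, 44 at a score of at least 100, 19 at the TSS base and 3 with at least 50% of the window covered, for H3K4me2 2 at the TSS base and 24 at 50%, and for H3K4me3 48 at 50%. The other 206 values of main results stayed within 1.5 times (counts) or 1 SD (medians), although within 1 SD the H3K4me2 median fell to 252 bp within 10 kb with matched numbers and turned sign within 2 kb, and the H3K4me3 median within 2 kb was 74 bp from the 5 prime end of the gene record. For the named genes 216 values did so and 16 did not.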
